A study of Mus musculus with 10 samples.

Results

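The genes described here carry out carnitine synthesis and the carnitine shuttle. A list of 10 genes was chosen by name, with earlier results of these data known. Of these, 9 (Cpt1a, Cpt1b, Cpt1c, Cpt2, Slc25a20, Crat, Crot, Slc22a5 and Aldh9a1) were found by Ensembl identifier among the 46983 genes of the count table. Tmlhe (ENSMUSG00000079834.2), whose product catalyzes the first step of carnitine synthesis, was not analysed here. Messenger RNA was sequenced from CD31+ cells isolated from the hearts of 10 wild type male C57BL/6J mice, with 1 library per mouse. From the age of 8 weeks, 5 mice received the control diet (11.6 kcal% fat) and 5 the ketogenic diet (89.5 kcal% fat) for 14 days. The comparison asks which mRNAs of cardiac endothelial cells differ after feeding of a ketogenic diet. CD31 antibodies on magnetic beads select cells by one surface protein, so other cells of the heart can be carried along, and the SMART-Seq kit amplifies cDNA without recording the strand.

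Long-chain fatty acids cannot cross the inner mitochondrial membrane as CoA esters. A CPT1 enzyme on the outer membrane exchanges CoA for carnitine, the translocase encoded by Slc25a20 carries the acylcarnitine inward in exchange for free carnitine, and CPT2 restores the CoA ester, which enters beta-oxidation. CPT1A is the widely expressed and liver form of the first enzyme, CPT1B the muscle and heart form and CPT1C a form best known from brain, and CPT1 is inhibited by malonyl-CoA. Carnitine itself is taken up from blood by the transporter OCTN2 (Slc22a5) or made from trimethyllysine by TMLHE, ALDH9A1 and BBOX1, the last of these mainly in liver and kidney.

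The libraries held 10885154 to 12206734 counted reads in the control group and 11108020 to 12710861 in the ketogenic group. All 10 endothelial markers were detected in every mouse, with a summed level of 759 to 805 RPKM (reads per kilobase of gene, relative to the depth of the library) on the control diet and 730 to 829 on the ketogenic diet. None passed edgeR's test between diets (1 of 10 at an unadjusted p under 0.05), but 4 of the 10 (Cdh5, Cldn5, Tek and Esam) had at least 50% of the reads that 1 per start position and strand would allow, with Cdh5 at 92.3% or more in every mouse, so that changes in them would be compressed. The reads of Pecam1 (6770 to 7020) and Tie1 (7460 to 7746) varied less between mice than the library totals did, so changes in these may be compressed as well. Control mouse 1 stood apart, with a summed level of 340 RPKM for 8 macrophage markers against 73.0 to 148 in the other 9 mice. This mouse also had the lowest counts of Cpt1a, Slc25a20 and Aldh9a1, so the values without it are given with the results of these genes.

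Per length, Cpt1a was the most abundant of the 9 mRNAs, at 68.9 ± 9.89 RPKM on the control diet and 83.9 ± 1.93 on the ketogenic diet (mean ± SD, n = 5 mice each). Its mean RPKM exceeded that of 97.0% of the genes tested. Aldh9a1 came next, at 34.2 ± 2.51 and 48.0 ± 2.10 RPKM, above 91.8% of the genes tested. Crot, Slc25a20 and Cpt2 followed at 21.7, 16.7 and 16.7 RPKM on the control diet and 22.8, 22.8 and 19.0 on the ketogenic diet. Cpt1c (11.8 and 11.9 RPKM), Slc22a5 (10.1 and 8.64) and Crat (7.79 and 8.93) were lower. Cpt1b was near the limit of detection at 0.111 ± 0.0211 and 0.208 ± 0.0639 RPKM. Over the 10 mice, the ranges of neighbours in this order did not overlap between Cpt1a and Aldh9a1, Aldh9a1 and Crot, Cpt2 and Cpt1c, and Crat and Cpt1b, whereas Crot overlapped with Slc25a20, Slc25a20 with Cpt2, Cpt1c with Slc22a5 and Slc22a5 with Crat. The place of Crat depends on the length of 13960 bases that the authors' RPKM values imply for it, the longest of the 9. No gene in any mouse held more than 2.17 reads per base, close to the 2 that 1 read per start position and strand would give. Cpt1a, the most densely covered of the 9 genes, reached 1.07 reads per base, or 53.5% of this ceiling, and Aldh9a1 reached 30.5%.

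**Figure D1:**
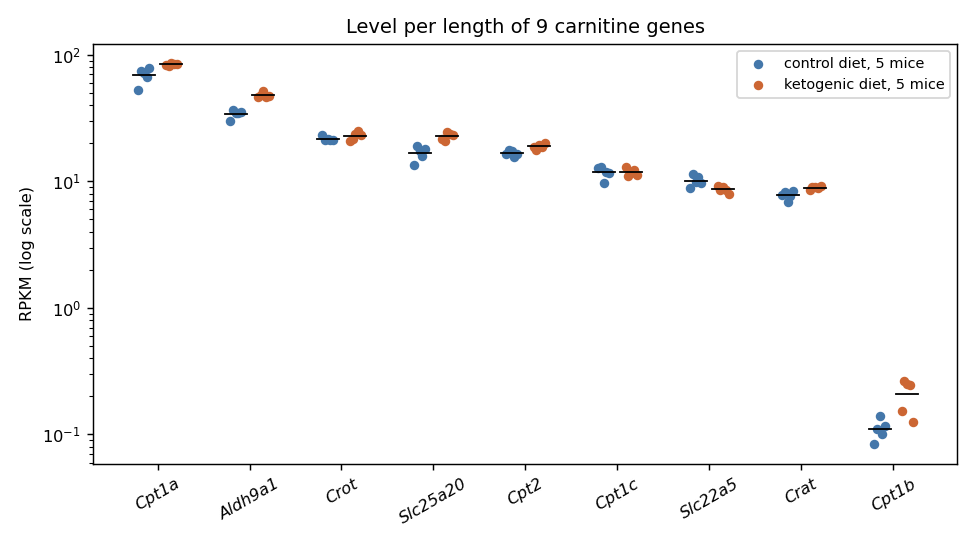
Level per length of the 9 carnitine genes in RPKM on a logarithmic axis, with 1 point per mouse and a bar at the mean of the 5 mice of a diet. Cpt1a lay between 53.1 and 86.1 RPKM in the 10 mice, and Cpt1b between 0.0833 and 0.265 RPKM.

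Of the 8 carnitine genes with enough reads for a test, Aldh9a1 and Slc25a20 rose on the ketogenic diet and none fell (adjusted p under 0.05 by edgeR's quasi-likelihood test with Benjamini-Hochberg adjustment over 15949 genes). Among all genes tested, 1.34% passed by this rule, 0.809% with a rise and 0.527% with a fall. At an unadjusted p under 0.05, 5 of the 8 were higher and 1, Slc22a5, was lower, against 8.57% and 9.26% of all genes. DESeq2 called 5 of the 8 (Aldh9a1, Slc25a20, Cpt1a, Cpt2 and Crat, each higher) and 5.12% of all genes. The normalized counts (reads scaled to a common library size by TMM) of 5 of the 8, Aldh9a1, Slc25a20, Cpt1a, Cpt2 and Crat, were higher in every ketogenic mouse than in every control mouse, a pattern found in 2.4% of all genes tested. None of the 8 was lower in every ketogenic mouse, against 1.94% of all genes. The median log2 fold change of the 8 genes was 0.18, beside -0.01 for all genes tested. In these bulk samples fewer cells of a type and less RNA per cell cannot be told apart.

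Both genes that rose lie on the plus strand, and the stretches that end right before their annotated starts are shown because they hold the promoters of the members called. The sequences are from RefSeq on GRCm38.p6, at chr1:167349741-167349990 for Aldh9a1 and chr9:108661886-108662087 for Slc25a20, and capitals mark a match to a motif searched.
Aldh9a1: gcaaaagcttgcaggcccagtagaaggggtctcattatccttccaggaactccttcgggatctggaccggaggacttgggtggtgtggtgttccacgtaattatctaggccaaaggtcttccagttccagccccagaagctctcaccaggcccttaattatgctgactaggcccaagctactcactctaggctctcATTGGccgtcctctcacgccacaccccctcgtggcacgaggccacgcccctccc
Slc25a20: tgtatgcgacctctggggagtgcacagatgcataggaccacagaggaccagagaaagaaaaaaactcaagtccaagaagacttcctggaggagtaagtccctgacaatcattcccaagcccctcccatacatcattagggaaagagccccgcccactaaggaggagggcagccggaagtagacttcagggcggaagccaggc
The motifs were searched on both strands in the 250 bases before the RefSeq start of each gene, for which 7 of the 9 genes had a sequence. Only exact matches were counted, so a stretch that departs from a motif by a single base does not appear in these counts. The direct repeat of AGGNCA with 1 base between its arms, the kind of element that PPAR-RXR dimers are known to bind, was in none of the 7 and in 0.338% of 32851 promoters. AGGTCA, which can be an arm of that repeat and so overlaps with it, was found upstream of Cpt1a and Cpt1c and in 14.0% of promoters. CCAAT was found upstream of Aldh9a1, Cpt1a, Cpt1c and Crot and in 33.8% of promoters, and in Aldh9a1 it lies on the minus strand, read as ATTGG, 54 to 50 bases before the start. TATAAA was in none of the 7 and in 12.4% of promoters. The stretch shown for Slc25a20 is 202 bases long, shorter than the 250 bases searched. Neither this stretch nor the window searched for Slc25a20 held a match, which says only that these letters are not there.

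Aldh9a1 (ENSMUSG00000026687.14, chromosome 1 from 167349991 to 167368532, GRCm38) encodes an aldehyde dehydrogenase that oxidizes trimethylaminobutyraldehyde to butyrobetaine, the direct precursor of carnitine. Its normalized counts were 1634, 1973, 1865, 1910 and 1914 in control mice 1 to 5 and 2499, 2607, 2777, 2520 and 2532 in ketogenic mice 1 to 5. The lowest ketogenic mouse therefore lay well above the highest control mouse, and control mouse 1 was the lowest of its group. The mean rose from 1859 ± 131 to 2587 ± 114, a log2 fold change of 0.48 with a standard error of 0.0513 and a 95% interval of 0.36 to 0.59 (edgeR, adjusted p = 0.0013). This is 1.39-fold, and Aldh9a1 ranked 10 by p-value among all genes tested. When single mice were left out the log2 fold change stayed between 0.43 and 0.50 and Aldh9a1 was called in all 10 fits. Without control mouse 1 it was 0.43 (edgeR, adjusted p = 0.00098). Aldh9a1 was not called with the cardiomyocyte (edgeR, adjusted p = 0.0688) or lymphocyte (0.0814) marker score of each mouse in the fit, at 0.42 in both.

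Slc25a20 (ENSMUSG00000032602.6, chromosome 9 from 108662088 to 108684641) encodes the carnitine-acylcarnitine translocase of the inner membrane. Its normalized counts were 849, 1188, 1074, 1005 and 1114 in control mice 1 to 5 and 1337, 1286, 1534, 1479 and 1437 in ketogenic mice 1 to 5. The diets did not overlap, and control mouse 1 was again the lowest. The mean rose from 1046 ± 129 to 1414 ± 102, a log2 fold change of 0.43 with a standard error of 0.0827 and a 95% interval of 0.25 to 0.61, or 1.35-fold (edgeR, adjusted p = 0.0299). Without control mouse 1 the log2 fold change was 0.37 and Slc25a20 was still called (edgeR, adjusted p = 0.0350). It was not called without control mouse 3 (edgeR, adjusted p = 0.0671), control mouse 4 (0.0612), ketogenic mouse 3 (0.0714), ketogenic mouse 4 (0.0698) or ketogenic mouse 5 (0.0628), with log2 fold changes of 0.37 to 0.49 over the 10 fits.

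Cpt1a (ENSMUSG00000024900.4, chromosome 19 from 3322334 to 3385733), the form of the rate-limiting outer membrane enzyme that predominates here, did not pass the test. Its normalized counts were 2683, 3740, 3606, 3364 and 3940 in control mice 1 to 5 and 4158, 4051, 4304, 4241 and 4192 in ketogenic mice 1 to 5. The ketogenic mice lay close together and above every control mouse, and the control mice were spread widely, with mouse 1 far below the rest. The log2 fold change was 0.27 with a standard error of 0.0809 and a 95% interval of 0.10 to 0.45 (edgeR, adjusted p = 0.112). Without control mouse 1 it was 0.19 (edgeR, adjusted p = 0.0789), and with counts corrected for start positions already used 0.38 (edgeR, adjusted p = 0.0973). DESeq2 called Cpt1a, at 0.28 (adjusted p = 0.0228).

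Cpt1b (ENSMUSG00000078937.8, chromosome 15 from 89416405 to 89425863) had 4, 6, 7, 5 and 6 reads in control mice 1 to 5 and 8, 13, 13, 13 and 7 in ketogenic mice 1 to 5, too few to pass the filter on low counts. The raw ranges touched at 7 reads. Its exons overlap those of Gm44502, which was not analysed here. A fit without that filter gave a log2 fold change of 0.88 with a standard error of 0.385 (edgeR, adjusted p = 0.381). The log2 ratio of Cpt1b to Cpt1a reads, which does not depend on normalization, was -9.25 ± 0.17 on the control diet and -8.68 ± 0.49 on the ketogenic diet, a difference of 0.57 (two-sided exact permutation test over 252 regroupings, p = 0.0873, smallest possible 0.00794). The ratio of 3 of 5 ketogenic mice lay above that of every control mouse. Without ketogenic mouse 5 the difference was 0.74 (exact permutation test, p = 0.0159) and without ketogenic mouse 2 it was 0.45 (exact permutation test, p = 0.127). After adjustment for the cardiomyocyte score it was 0.12.

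Cpt1c (ENSMUSG00000007783.9, chromosome 7 from 44959372 to 44974851) ranged from 317 to 422 normalized counts on the control diet and from 359 to 423 on the ketogenic diet. Its exons overlap those of 6530437J22Rik on the other strand, which was not analysed here. The diets overlapped almost fully, and the log2 fold change was -0.01 with a 95% interval of -0.20 to 0.19 (edgeR, adjusted p = 0.982). Of the summed RPKM of the 3 CPT1 genes, Cpt1a made up 85.0% ± 2.91 on the control diet and 87.4% ± 0.733 on the ketogenic diet (SD, n = 5 mice). Cpt1c made up 14.8% ± 2.92 and 12.3% ± 0.746, and Cpt1b between 0.126% and 0.287% in the 10 mice. The lowest share of Cpt1a, 80.4%, was that of control mouse 1.

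**Figure D2:**
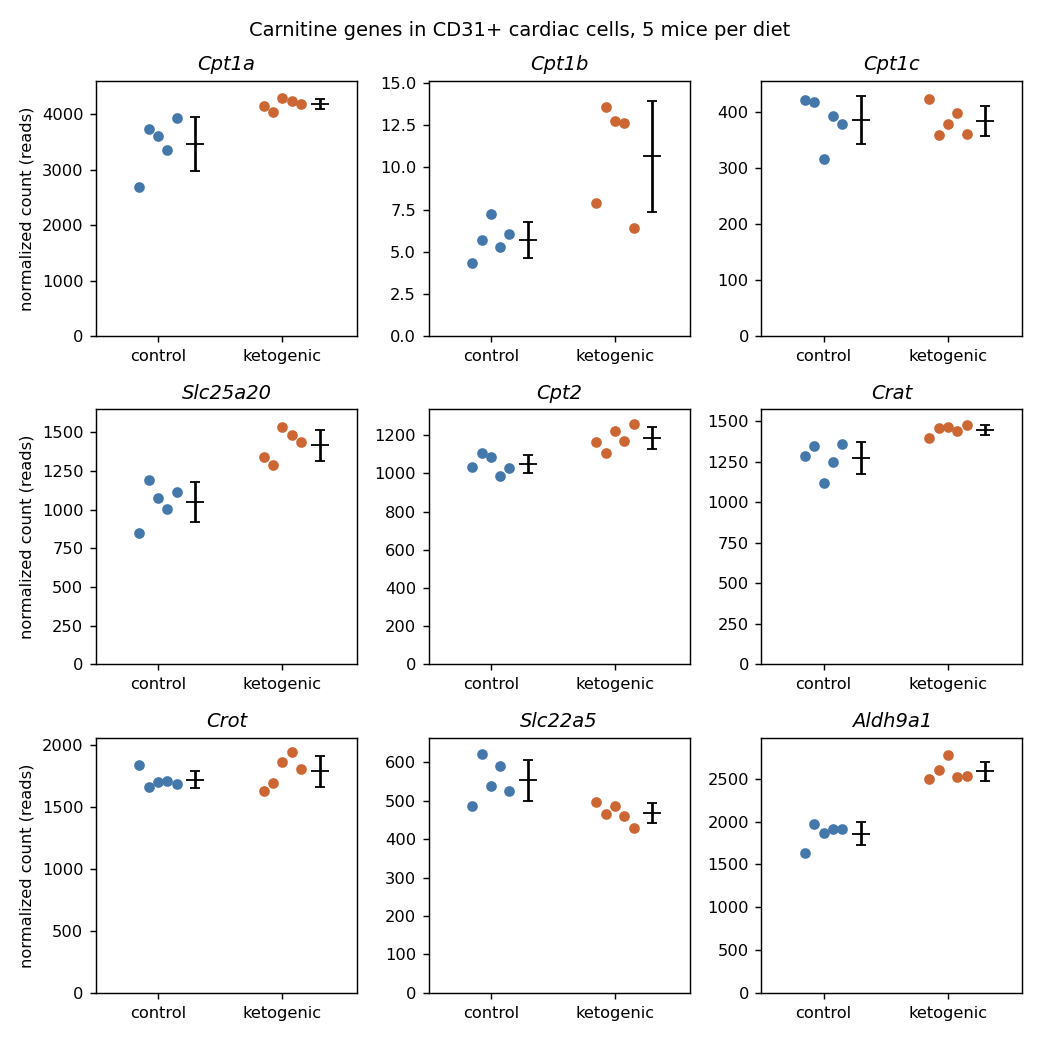
Normalized counts of the 9 carnitine genes in each mouse, with 1 panel per gene, 5 control mice (left) and 5 ketogenic mice (right), and the mean with an error bar of 1 SD beside the points. Aldh9a1, Slc25a20, Cpt1a, Crat and, barely, Cpt2 separate the diets, Slc22a5 lies lower in most ketogenic mice, and Crot, Cpt1c and Cpt1b overlap.

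Cpt2 (ENSMUSG00000028607.16, chromosome 4 from 107903981 to 107923610) encodes the inner membrane transferase that follows the translocase. Its normalized counts were 1034, 1109, 1087, 989 and 1028 in control mice 1 to 5 and 1164, 1109, 1221, 1170 and 1257 in ketogenic mice 1 to 5. The highest control mouse and the lowest ketogenic mouse differed by less than 1 normalized read, so the groups were barely apart. The log2 fold change was 0.18 with a standard error of 0.0484 (edgeR, adjusted p = 0.0957), and DESeq2 called it at 0.18 (adjusted p = 0.0289).

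Crat (ENSMUSG00000026853.15, chromosome 2 from 30400471 to 30415813) encodes carnitine acetyltransferase, which moves acetyl groups between CoA and carnitine. Its normalized counts were 1288, 1348, 1117, 1252 and 1360 in control mice 1 to 5 and 1396, 1457, 1466, 1441 and 1480 in ketogenic mice 1 to 5. The gap between the diets was small, and the ketogenic mice lay closer together than the control mice. The log2 fold change was 0.19 with a standard error of 0.0525 (edgeR, adjusted p = 0.101), and DESeq2 called it at 0.19 (adjusted p = 0.0278). With the lymphocyte marker score in the fit it was 0.08 (edgeR, adjusted p = 0.668). Exons of Crat overlap those of Dolpp1 on the other strand, and without strand the reads of the shared stretch cannot be told apart. Whether such reads were counted for either gene or left out is not given in the sources used here. Dolpp1 had a log2 fold change of 0.19 too (edgeR, adjusted p = 0.208).

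Crot (ENSMUSG00000003623.4, chromosome 5 from 8966033 to 8997324), the peroxisomal octanoyltransferase that hands on shortened acyl chains as carnitine esters, ranged from 1664 to 1839 normalized counts on the control diet and from 1627 to 1943 on the ketogenic diet. The groups overlapped, with 2 ketogenic mice above and 1 below all control mice. The log2 fold change was 0.06 with a 95% interval of -0.05 to 0.17 (edgeR, adjusted p = 0.591).

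Slc22a5 (ENSMUSG00000018900.7, chromosome 11 from 53864542 to 53891660), the carnitine transporter of the plasma membrane, pointed the other way without passing the test. Its normalized counts were 486, 622, 538, 591 and 525 in control mice 1 to 5 and 497, 464, 486, 460 and 429 in ketogenic mice 1 to 5. Below every control mouse lay 4 of 5 ketogenic mice, though ketogenic mouse 3 (485.97) was barely below control mouse 1 (486.01). Ketogenic mouse 1 was above control mouse 1 only. The log2 fold change was -0.24 with a standard error of 0.0760 and a 95% interval of -0.41 to -0.08 (edgeR, adjusted p = 0.133). In none of the 13 other fits to all 10 mice did Slc22a5 pass, with log2 fold changes of -0.36 to -0.20.

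Across the 10 mice, Slc25a20 varied together with Aldh9a1 (Pearson r = 0.94 of log2 CPM, counts relative to library size), with Cpt1a (r = 0.94) and with Cpt2 (r = 0.87). Aldh9a1 and Cpt1a had an r of 0.86. Slc22a5 ran against Cpt2 (r = -0.62) and Crat (r = -0.59). Crot had an r of 0.01 with Cpt1a, and Cpt1c had an r of -0.22 to 0.34 with the other 7 genes. These values describe 10 libraries that share the diet contrast and control mouse 1, and no p is given. Over all genes tested, Tmigd1 (r = 0.98) and Pdk4 (r = 0.96) were among the closest in pattern to Aldh9a1. Pex3, Gnai1 and Il1rl2 were closest to Slc25a20 (each r = 0.96). Gm42986 (r = 0.97), Angptl4 (r = 0.95) and Fbxo32 (r = 0.94) were closest to Cpt1a. For the other 5 genes tested the closest were Heatr3, Afg1l and Tpst1 for Cpt2 (each r = 0.94 to 0.95), Arhgap11a, Dnal1 and Slc25a1 for Crat (0.92 to 0.94), BC052040, Stard7 and Impa1 for Crot (0.90 to 0.93), Cks1b, Plekha7 and Gm21811 for Cpt1c (0.92 to 0.95), and included Gm15890 (0.93) and Kif2a (0.90) for Slc22a5.

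The genes around the shuttle were examined as 5 lists. Other genes of carnitine handling were scarce, since of 6 listed (Bbox1, Slc22a4, Slc22a21, Slc22a16, Slc16a9 and Slc6a14) only Slc22a4, Slc22a21 and Slc16a9 could be tested. Bbox1, for the last step of carnitine synthesis, had 0 to 6 reads per mouse. None of these 3 passed edgeR's test, 1 was lower at an unadjusted p under 0.05, and their median log2 fold change was -0.16. Slc22a4, an organic cation transporter related to Slc22a5, had -0.61 with a standard error of 0.207 and lay lower in every ketogenic mouse than in every control mouse (80.3 ± 14.7 against 52.6 ± 13.9 normalized counts; edgeR, adjusted p = 0.159). Slc22a21, a carnitine transporter of the same family, had -0.16. Slc22a4, Slc22a5 and Slc22a21 are related in sequence, and how reads that fit more than 1 of them were counted is not given in the sources used here.

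Upstream of the shuttle, 4 of 5 acyl-CoA synthetases, which make the CoA esters, were tested by edgeR and none passed (median 0.12), with 2 higher at an unadjusted p under 0.05. Acsl5 had a log2 fold change of -0.01 and Acsl4 of 0.10. The 3 genes that make or remove malonyl-CoA, the inhibitor of CPT1, did not pass edgeR's test either (median 0.15, 1 of 3 higher at an unadjusted p under 0.05), with Acacb, a carboxylase of the outer mitochondrial membrane, at 0.10 and Mlycd, which degrades malonyl-CoA, at 0.15.

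Downstream, 2 of 15 beta-oxidation genes rose and none fell by edgeR (8 and 0 at an unadjusted p under 0.05), with a median log2 fold change of 0.12 and a value above 0 for each of the 15. Acadl, the long-chain acyl-CoA dehydrogenase, went from 707 ± 87.7 to 1015 ± 141 normalized counts, a log2 fold change of 0.52 (edgeR, adjusted p = 0.0393). Decr1, which processes unsaturated chains, went from 774 ± 85.2 to 1090 ± 106, a log2 fold change of 0.49 (edgeR, adjusted p = 0.0190). Acadl was called in 2 of the 10 fits that left out a mouse, those without ketogenic mouse 2 or 4, with an adjusted p of up to 0.0815 in the other fits (edgeR). Of these 10 fits Decr1 was lost in the 1 without control mouse 2 (edgeR, adjusted p = 0.0611). With the cardiomyocyte score in the fit, Decr1 was at 0.33 (edgeR, adjusted p = 0.299) and Acadl at 0.62 (0.158), and neither was called with the macrophage or lymphocyte score. The genes of the list with the highest mean counts, Hadha and Acaa2, had 0.09 and 0.13 and did not pass. Acaa2 held up to 87.4% of the reads that the ceiling allows, so its value is compressed.

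Among 13 genes for PPAR receptors, their partners and their known targets, 6 rose and none fell by edgeR (10 and 0 at an unadjusted p under 0.05), with a median log2 fold change of 0.52. Pdk4, the kinase that restrains pyruvate dehydrogenase, rose by 1.44 (edgeR, adjusted p = 0.00010). The others were Ucp3 (2.21), Angptl4 (1.07), Fabp3 (0.57), Plin2 (0.33) and Acot2 (0.27). Of these 6, Fabp3 was lost without control mouse 3 (edgeR, adjusted p = 0.0533) or ketogenic mouse 4 (0.0536), and of the 10 fits that left out a mouse Acot2 was called in those without control mouse 4 or ketogenic mouse 2, with an adjusted p of up to 0.0859 in the other 8 fits. Cd36, the fatty acid receptor and the gene of this list with the highest mean count, had -0.03 at 41.3% to 43.2% of the ceiling on reads, with 6902 to 7218 reads in every mouse. These reads varied less between mice than the library totals did, so the value of Cd36 may be compressed. With the cardiomyocyte score in the fit Pdk4 and Plin2 were still called, and with the lymphocyte score Pdk4 was. Ucp3 rested on few reads, with 5 to 25 in control mice and 37 to 86 in ketogenic mice. In 12 other fits to all 10 mice its log2 fold change ran from 0.61 to 2.31, and 10 of these fits called it. The rises of Aldh9a1 and Slc25a20 were smaller than those of Pdk4, Ucp3 and Angptl4 as log2 fold changes, a difference that was not tested.

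**Figure D3:**
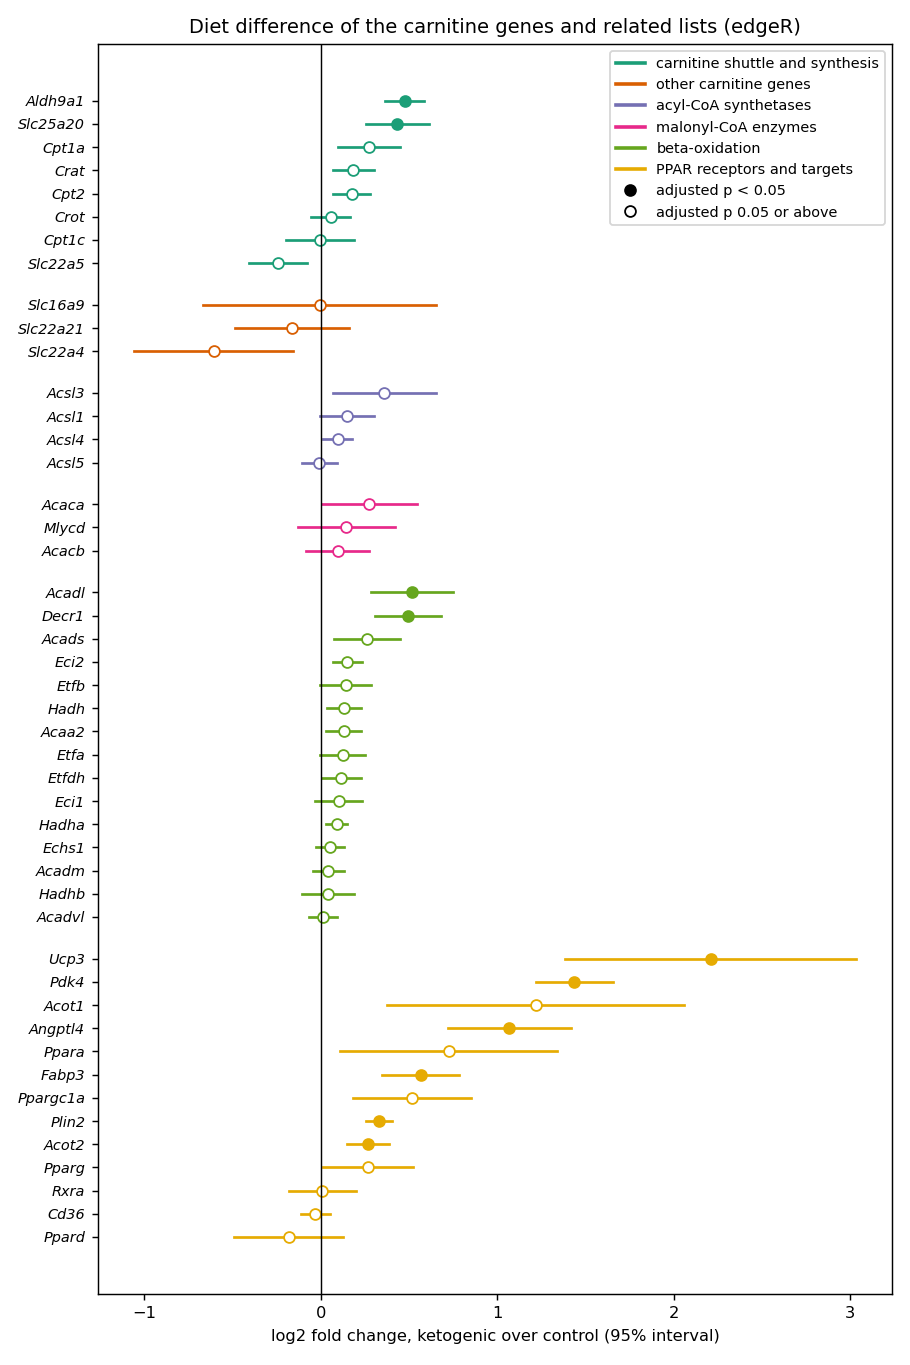
Log2 fold change (ketogenic over control) of each tested gene of 6 lists with its 95% interval from edgeR, with filled points for an adjusted p under 0.05. Aldh9a1 (0.48) and Slc25a20 (0.43) lie near Acadl (0.52) and Decr1 (0.49), and below Ucp3 (2.21) and Pdk4 (1.44).

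Cardiomyocytes are rich in fatty acid oxidation enzymes, so their markers are given beside these results. All 12 cardiomyocyte markers had a log2 fold change above 0 (median 0.34, from 0.10 for Tnnt2 to 1.03 for Ttn), and none passed edgeR's test, with 9 of 12 higher at an unadjusted p under 0.05. Their summed level was 241 to 301 RPKM on the control diet and 278 to 376 on the ketogenic diet, and no marker was at 0 in any mouse. Cpt1b, the heart muscle form, stayed at or below 13 reads per mouse, with a mean of 0.159 RPKM over all mice. Per length the 12 markers were spread widely, with means from 0.375 RPKM for Ryr2 and 0.592 for Ttn to 67.4 for Actc1. How the level of Cpt1b relates to these markers was not tested. In ketogenic mouse 1 the summed level, 278 RPKM, was below that of control mouse 3, at 301, and above the other 4 control mice, at 241 to 269. In that mouse Aldh9a1 (2499 against at most 1973 normalized counts in a control mouse), Slc25a20 (1337 against 1188) and Cpt1a (4158 against 3940) were above every control mouse. Cpt2, Crat, Cpt1c and Cpt1b were above too, and Crot (1627 against 1839) and Slc22a5 (497 against 622) were not. These are values of 1 mouse, and their relation to the cardiomyocyte markers was not tested. When the cardiomyocyte score of each mouse entered the fit, the log2 fold change of Aldh9a1 was 0.42 with a standard error of 0.0734 (edgeR, adjusted p = 0.0688) and that of Slc25a20 0.36 with a standard error of 0.121 (edgeR, adjusted p = 0.316). In this fit 17 of all genes were called instead of 213.

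**Figure D4:**
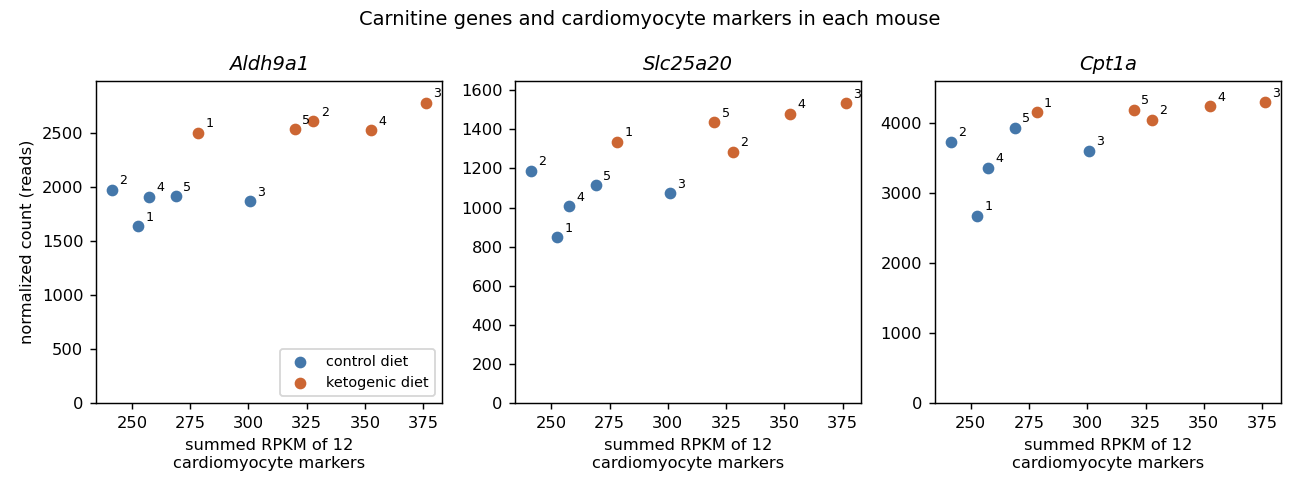
Normalized counts of Aldh9a1, Slc25a20 and Cpt1a (vertical axes) against the summed RPKM of 12 cardiomyocyte markers (horizontal axes), with 1 point per mouse marked by its number. Ketogenic mouse 1, at 278 RPKM, lies between control mouse 3 (301 RPKM) and the other 4 control mice (241 to 269 RPKM), and above all control mice in the 3 genes.

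Of the immune cell markers 1 passed the test. All 7 tested macrophage markers had a log2 fold change below 0 (from -0.31 for Csf1r to -2.63 for Adgre1), none passed edgeR's test, 4 were lower at an unadjusted p under 0.05, and the summed level of the 8 listed was 94.1 to 340 RPKM on the control diet and 73.0 to 143 on the ketogenic diet. The size of these values rests on control mouse 1, where Adgre1 had 2374 normalized counts against 25.3 to 613 in the other control mice. Without it, the log2 fold changes of the 7 ran from -1.12 for Adgre1 to -0.01 for Csf1r, with none at an unadjusted p under 0.05 (edgeR). Of 8 lymphocyte markers, Cd79a fell (-0.46; edgeR, adjusted p = 0.0221), with a range over the list from -0.53 for Ms4a1 to 0.11 for Cd3e, and the summed level was 125 to 151 against 111 to 118 RPKM, without overlap. With the macrophage score as a covariate the log2 fold change of Aldh9a1 was 0.42 (edgeR, adjusted p = 0.0023) and that of Slc25a20 0.37 (edgeR, adjusted p = 0.0681). With the lymphocyte score they were 0.42 and 0.35 (edgeR, adjusted p = 0.0814 and 0.254), and 5 of all genes were called. No fibroblast marker (from -0.06 for Col3a1 to 0.43 for Dpt) and no mural marker (from -0.09 for Cspg4 to 0.10 for Cnn1) passed edgeR's test, nor did any have an unadjusted p under 0.05, but 4 of 8 mural markers (Rgs5, Acta2, Myh11 and Tagln) and 2 of 8 fibroblast markers held at least 50% of the reads that the ceiling allows. Of the endothelial markers, Egfl7 had the lowest (-0.11) and Kdr the highest (0.13) log2 fold change. Of 6 adipocyte markers only Cidea had enough reads for a test (1.08; edgeR, adjusted p = 0.164), and the summed level was 0.557 to 1.52 against 1.02 to 2.76 RPKM.

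**Figure D5:**
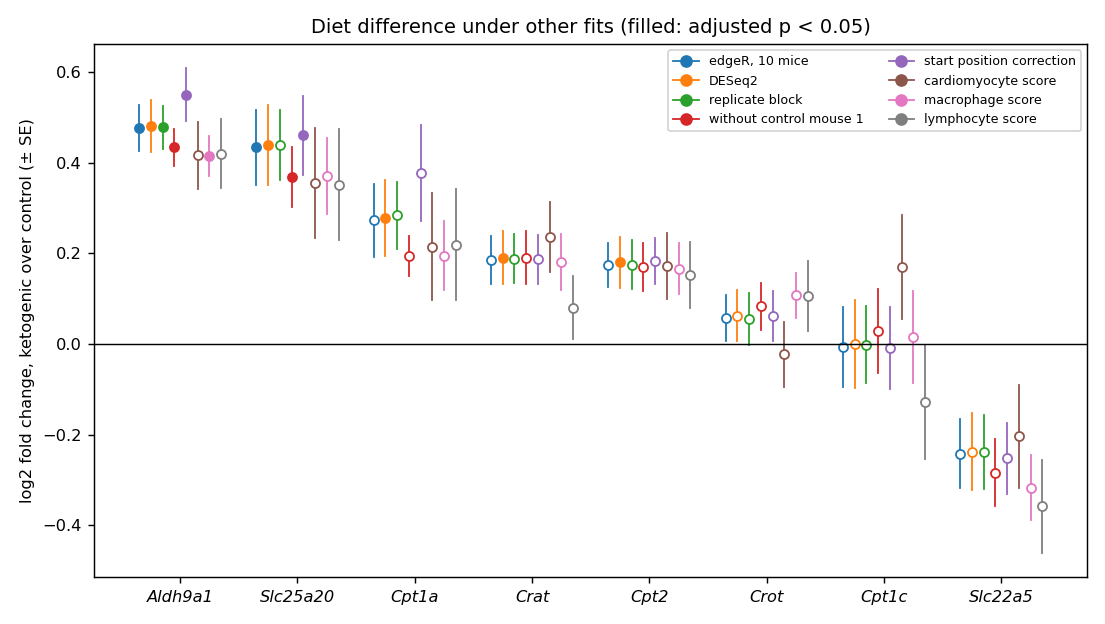
Log2 fold change of the 8 tested carnitine genes with its standard error under 8 fits, filled where the adjusted p was under 0.05. Aldh9a1 stayed between 0.42 and 0.55, and Slc25a20 between 0.35 and 0.46, while Cpt1c changed sign between fits, from -0.13 with the lymphocyte score to 0.17 with the cardiomyocyte score.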

How the data were processed

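RNA of CD31+ cells from 10 mouse hearts was read as single reads of 50 bases. The submitters' processing notes name bcl2fastq 2.17.1.14, STAR 2.3, HTSeq 0.6.0 and the mm10 build. The annotation release and any removal of duplicate reads are not given in the sources used here. The authors deposited raw counts per gene without normalization, and RPKM values, in which each count is divided by the gene's length and the library's counted reads. The study itself used DESeq2.

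Mice were grouped by their titles. Symbols and positions were taken from GENCODE M21 (GRCm38), where 46488 of the 46983 identifiers were found without regard to the version. The diet comparison used edgeR 4.0.16 under R 4.3.3, TMM factors, filterByExpr at its default settings and the quasi-likelihood F-test, which was tested on simulated counts, over 15949 genes with Benjamini-Hochberg adjustment. The standard error was taken as log2 fold change over the root of F. Marker scores are means of z-scores of log2 CPM (prior count 2). The ratio test, the tables and the plots used Python 3.11.15, SciPy 1.17.1 and matplotlib 3.10.9.

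The members and lists were chosen with earlier results of these data known. Named genes are the members, in each pathway list the genes with an adjusted p under 0.05 and those 2 with the highest mean count, the 3 genes closest to a member by Pearson r, and in each marker list the genes with the highest and lowest log2 fold change. Dolpp1, Bbox1, Slc16a9, Actc1, Ryr2, Pecam1, Tie1 and the markers near the read ceiling are named beside a result and were chosen after their values were seen. Certain genes within the rule are not reported here, and 1 of them was left out of the counts of the PPAR list. Alternatives were RLE and upper quartile factors, library size alone, no filter, a minimum of 10 counts per mouse, DESeq2 1.42.0, limma 3.58.1 on log2(RPKM + 1) and log2(RPKM + 0.1), a block for replicate numbers, the cardiomyocyte score as a covariate and omission of each mouse. For the ratio, the RPKM ratio and 0.5 added reads were also used. The macrophage and lymphocyte scores and a correction for used start positions (2 per base) were chosen after seeing the data.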

Additional observations from a re-analysis of the deposited data

Results flagged for a closer look

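In each diet group of 5 mice the gap between an extreme mouse and its nearest neighbour was divided by the range of the group. It exceeded Dixon's critical value of 0.71 in 3 of 50 groups examined, where chance gives about 1 in 20, or 2.5. The normalized count of Crot was highest in control mouse 1, at 1839 against 1705 in the nearest control mouse (0.762 of the range). The log2 ratio of Cpt1b to Cpt1a reads was highest in control mouse 3, at -8.96 against -9.28 (0.811 of the range), which rests on 7 reads of Cpt1b. The macrophage marker score was highest within its diet in ketogenic mouse 4, at 0.63 against -0.49 (0.852 of the range).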

How the results depend on the processing

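Under the 13 other fits to all 10 mice and 10 fits that left out a mouse, Aldh9a1, Slc25a20, Cpt1a, Cpt2, Crat and Slc22a5 kept their direction. The number of all genes called was 213, and 816 with DESeq2, 125 with the macrophage score, 17 with the cardiomyocyte score, 5 with the lymphocyte score, and 86 (without control mouse 2) to 492 (without ketogenic mouse 2) with a mouse left out. Of the 8 carnitine genes 2 were called, and 5 with DESeq2, 1 with the macrophage score, 0 with the cardiomyocyte or lymphocyte score by edgeR, and 1 to 2 with a mouse left out. With the cardiomyocyte and lymphocyte scores, 4 and 3 of the 8 had an unadjusted p under 0.05. DESeq2 called Cpt1a (0.28), Cpt2 (0.18) and Crat (0.19). Of the other pathway genes 8 were called, and 5 with the macrophage, 2 with the cardiomyocyte and 1 with the lymphocyte score, and 5 (without control mouse 2 or 3) to 8 with a mouse left out. Aldh9a1 missed the threshold with the cardiomyocyte (0.42) and lymphocyte (0.42) scores. Slc25a20 missed it with the cardiomyocyte (0.36), macrophage (0.37) and lymphocyte (0.35) scores, and ranged from 0.37 to 0.49 with a mouse left out. The standard error of Aldh9a1 was 0.0734 with the cardiomyocyte and 0.0766 with the lymphocyte score, against 0.0513 without a score. The sign of Cpt1c turned to 0.0064 with library size alone, 0.010 and 0.011 with limma at 1 and 0.1 added, 0.17 with the cardiomyocyte score and 0.016 with the macrophage score, and ranged from -0.068 to 0.030 with a mouse left out. Crot turned to -0.023 with the cardiomyocyte score. The ratio of Cpt1b to Cpt1a differed by 0.45 to 0.74 with a mouse left out, and by 0.12 with the cardiomyocyte score. The cause of these changes was not tested.

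No pairing of the mice by replicate number was visible, since mice with the same number had correlations of deviations from -0.13 to 0.09. None was closest to its own number. The paper describes the control mice as littermates, but which mice shared a litter is not given in the sources used here. With the replicate number as a block, 113 of all genes, 1 of the carnitine genes and 5 of the pathway genes were called, Aldh9a1 had an adjusted p of 0.0154 and Slc25a20 one of 0.0541 (edgeR) at a log2 fold change of 0.44. The ratio of Cpt1b to Cpt1a differed by 0.57 under this pairing (exact test over sign changes of the differences within pairs, p = 0.125). With so few pairs this test cannot give a p under 0.05, so it decides nothing here. The 4 to 13 reads of Cpt1b per mouse limit the precision of this ratio.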
